A study of Homo sapiens with 8 samples.

Results

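The amino acid response was followed through 43 named genes: ATF4, the transcription factors that act with it or under it, and genes known as its targets in amino acid synthesis, amino acid import, tRNA charging and stress feedback. They are a list of names, and each gene was read from its brightest probe set (the highest mean signal over all arrays) among those annotated to a single gene. Such a probe set was found for 39 of the 43 genes, among 11963 genes on the array; ALDH1L2, SESN2, GPT2 and MARS1 were not analysed here. The 39 genes have 59 probe sets in all.

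The study used SH-SY5Y, a human neuroblastoma line of sympathetic origin, and asked what loss of DJ-1 (gene PARK7, mutated in a recessive form of Parkinson's disease) does to its transcripts. Clones B and G were stably transfected with an RNAi construct against DJ-1, and clones H and M carried a scramble control; the labels name no other genotype, drug or time point. Each clone was measured on 2 arrays numbered replicate 1 and replicate 2, so each condition has 4 arrays but only 2 clones, and a difference between conditions cannot be told apart from a difference between clones picked for them. Nothing says that replicates came from separate cultures, so p-values measure the spread between these arrays, which may be technical. Values are log2 signals from the deposited table, and a difference of 1 is a doubling.

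ATF4 is a basic leucine zipper factor whose translation increases when the initiation factor eIF2 is phosphorylated, for example by the kinase GCN2 on uncharged tRNA, by PERK in the endoplasmic reticulum, or by HRI. It pairs with C/EBP proteins on composite C/EBP-ATF response elements and drives genes that make, import and activate amino acids, while DDIT3, TRIB3 and CHAC1 mark a stronger or longer response. The transcript of ATF4 is only part of its control, because the protein is set largely by translation, which arrays do not measure.

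RefSeq promoters (GRCh38.p14, from 250 bases before to 50 bases after a start site) were at hand for 34 of the 43 genes. The 4 stretches that follow, each 120 bases and written 5′ to 3′ along the gene's strand, are shown because they hold the element through which ATF4 is known to act; capitals mark the C/EBP-ATF match TGATGNAA, which lies on the opposite strand in CHAC1 and AARS1. They are ASNS (chr7:97872417-97872536, minus strand), CHAC1 (chr15:40953221-40953340, plus strand), AARS1 (chr16:70289634-70289753, minus strand) and ATF3 (chr1:212565157-212565276, plus strand).
ASNS: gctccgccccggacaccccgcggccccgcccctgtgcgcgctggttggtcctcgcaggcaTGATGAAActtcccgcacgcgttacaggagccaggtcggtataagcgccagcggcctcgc
CHAC1: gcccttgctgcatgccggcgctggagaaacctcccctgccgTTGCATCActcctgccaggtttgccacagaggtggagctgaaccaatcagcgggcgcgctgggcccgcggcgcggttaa
AARS1: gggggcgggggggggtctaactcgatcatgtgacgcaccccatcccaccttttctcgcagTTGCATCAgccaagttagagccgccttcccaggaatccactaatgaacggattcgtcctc
ATF3: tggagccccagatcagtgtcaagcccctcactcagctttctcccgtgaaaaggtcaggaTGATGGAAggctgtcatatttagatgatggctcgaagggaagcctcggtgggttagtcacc

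The match starts 68 bases before the start site in ASNS, 209 in CHAC1, 187 in AARS1 and 191 in ATF3. It was present in 11 of the 34 genes (32.4%), against 4.46% of all 27305 genes in the promoter table, searched on both strands. The antioxidant response element TGACNNNGC was present in 12 of the 34 (35.3%) against 16.1% of all genes, and the cyclic AMP response element core TGACGT in 2 (5.88%) against 9.64%. None of these letter matches overlaps another in the stretches shown, and a match is a description of sequence, not of binding.

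The promoters of VLDLR (chr9:2621668-2621787, plus strand) and ALDH18A1 (chr10:95656711-95656830, minus strand) are shown because these were the members that passed the test of knockdown against scramble. Neither holds TGATGNAA. Capitals mark an antioxidant match in VLDLR, 35 bases before the start site, and 3 TGACGT matches in ALDH18A1, of which the first and last lie on the opposite strand.
VLDLR: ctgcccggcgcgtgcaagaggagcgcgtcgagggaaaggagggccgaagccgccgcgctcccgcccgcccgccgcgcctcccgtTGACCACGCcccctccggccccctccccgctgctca
ALDH18A1: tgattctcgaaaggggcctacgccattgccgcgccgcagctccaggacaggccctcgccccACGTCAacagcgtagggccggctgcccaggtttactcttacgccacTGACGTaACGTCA

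Knockdown was present in every array labelled so: PARK7 averaged 10.18 ± 0.18 (SD, n = 4 arrays) in knockdown and 13.08 ± 0.09 (n = 4) in scramble arrays, a difference of -2.90 (adjusted p = 1.67e-06). Array medians lay between 8.03 and 8.08. The scramble array H2 stood apart from the other scramble arrays for many members, and results that rest on it are given with and without it. Of 15 adrenergic neuroblast markers, 14 had a mean above the median probe set (8.06) and TH, the first enzyme of catecholamine synthesis, did not, at 6.05 in knockdown and 5.99 in scramble arrays. All 6 leukocyte markers lay below that median, as did 7 of 8 epithelial and 4 of 5 Schwann and glial markers.

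Most members had higher mean signal in DJ-1 knockdown than in scramble arrays, but few differences passed the adjusted threshold. Of 39 members, 35 had a positive difference, with a median of 0.36, against a median of 0.00 and 50.7% positive over all 22215 probe sets. VLDLR rose and ALDH18A1 fell (limma, clone as a random block, Benjamini-Hochberg adjusted p under 0.05); at an unadjusted p under 0.05, 14 members were higher and 1 lower, beside 10.9% and 9.02% of all probe sets. At the adjusted threshold the background was 1.53% of probe sets called higher and 1.43% called lower, so 1 call each way among 39 members is close to it. That fit had no term for the replicate number. With the replicate number as a block as well, 20 members were higher and 1 lower at an unadjusted p under 0.05. The shares over all probe sets in that second fit were 11.5% and 8.65%. All 4 knockdown arrays lay above all 4 scramble arrays for 2 members, VLDLR and SLC38A2, where 6.68% of probe sets did so, and below them for 1, ALDH18A1, where 5.03% did.

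**Figure D1:**
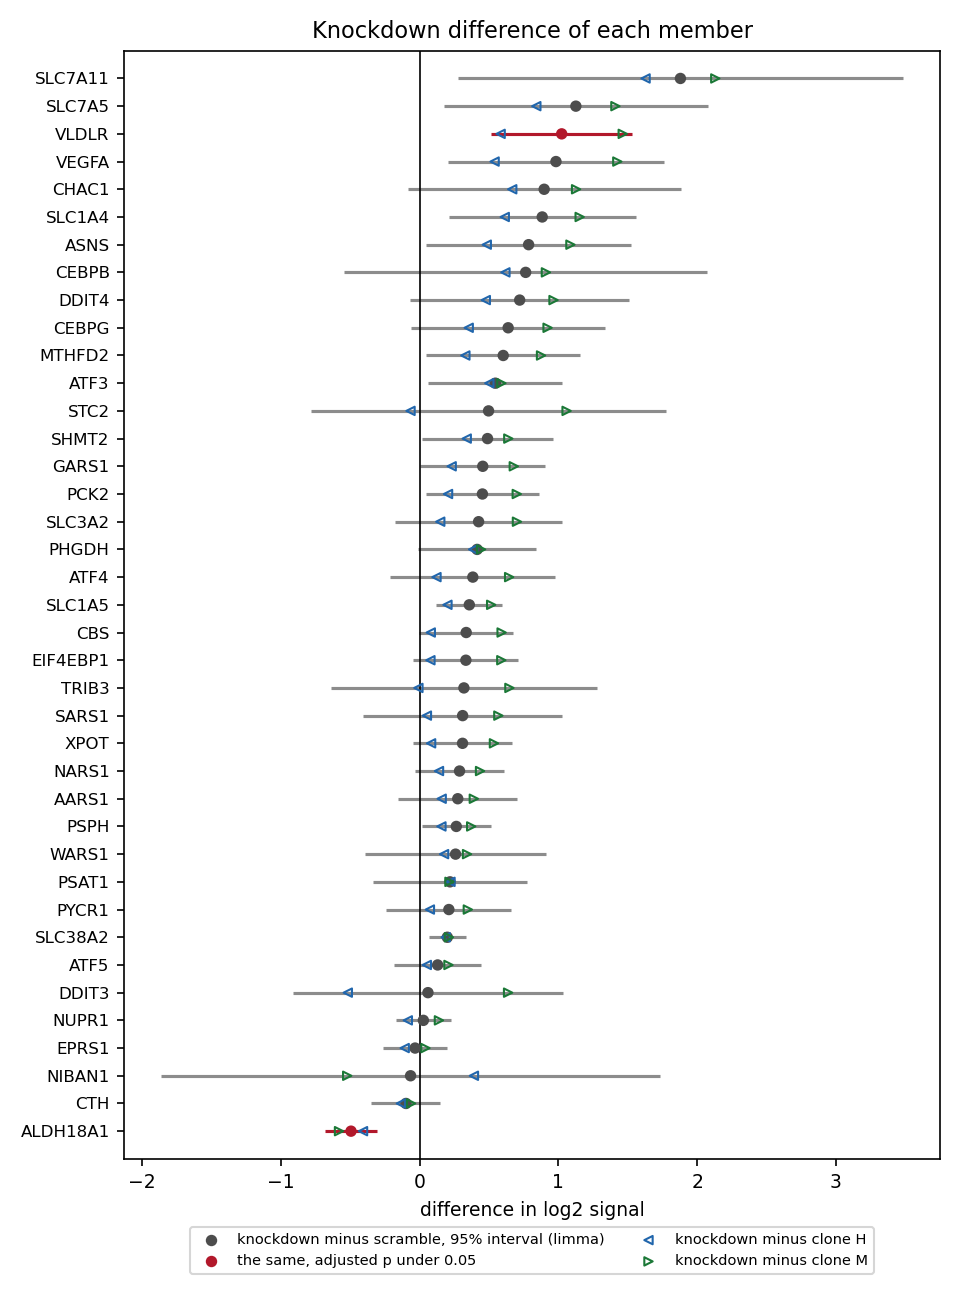
Difference in log2 signal between 4 knockdown and 4 scramble arrays for each of 39 members (dots, with 95% limma intervals; red where the adjusted p is under 0.05), and the same knockdown mean set against clone H alone or clone M alone (triangles). VLDLR (1.02) and ALDH18A1 (-0.49) are the called members, and for 36 of 39 members the triangle for clone M lies farther from 0 than that for clone H.

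VLDLR, a receptor for apolipoprotein E and reelin, gave the clearest increase. Its signal was 9.80 and 9.96 in clone B, 9.62 and 9.87 in clone G, 9.12 and 9.34 in clone H, and 8.48 and 8.22 in clone M (replicate 1 and then 2, here and in all such pairs). Every knockdown array was above every scramble array, and clone M was the lowest. The means were 9.81 ± 0.15 (SD, n = 4) and 8.79 ± 0.53 (n = 4), a difference of 1.02 (SE 0.23, adjusted p = 0.046), or 2.03-fold. The adjusted p in limma was 0.055 without the clone block and 0.20 on clone means. With the replicate number as a block it was 0.053. Against clone H alone the difference was 0.58 (adjusted p = 0.21), and against clone M alone it was 1.46 (adjusted p = 0.0017). The call was kept without H1 or H2 and lost without any 1 of the other arrays, where the difference was 0.80 to 1.09 and the adjusted p 0.064 to 0.20.

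ALDH18A1, which makes the first intermediate of proline synthesis from glutamate, was the member that fell. Its signal was 9.82 and 9.93 in B, 10.05 and 9.95 in G, 10.25 and 10.44 in H, and 10.51 and 10.53 in M. The 4 knockdown arrays lay below the 4 scramble arrays without overlap, 9.94 ± 0.10 against 10.43 ± 0.13 (SD, n = 4 each). The difference of -0.49 (SE 0.08) had an adjusted p of 0.021, and of 0.027 with the replicate block. In limma without the clone block ALDH18A1 had an adjusted p of 0.028, and on clone means of 0.12. It lost its call without B1, B2 or G2 (-0.45, -0.50 and -0.50, adjusted p = 0.062, 0.14 and 0.061). PYCR1, which completes proline synthesis, differed by 0.21 (adjusted p = 0.59).

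**Figure D2:**
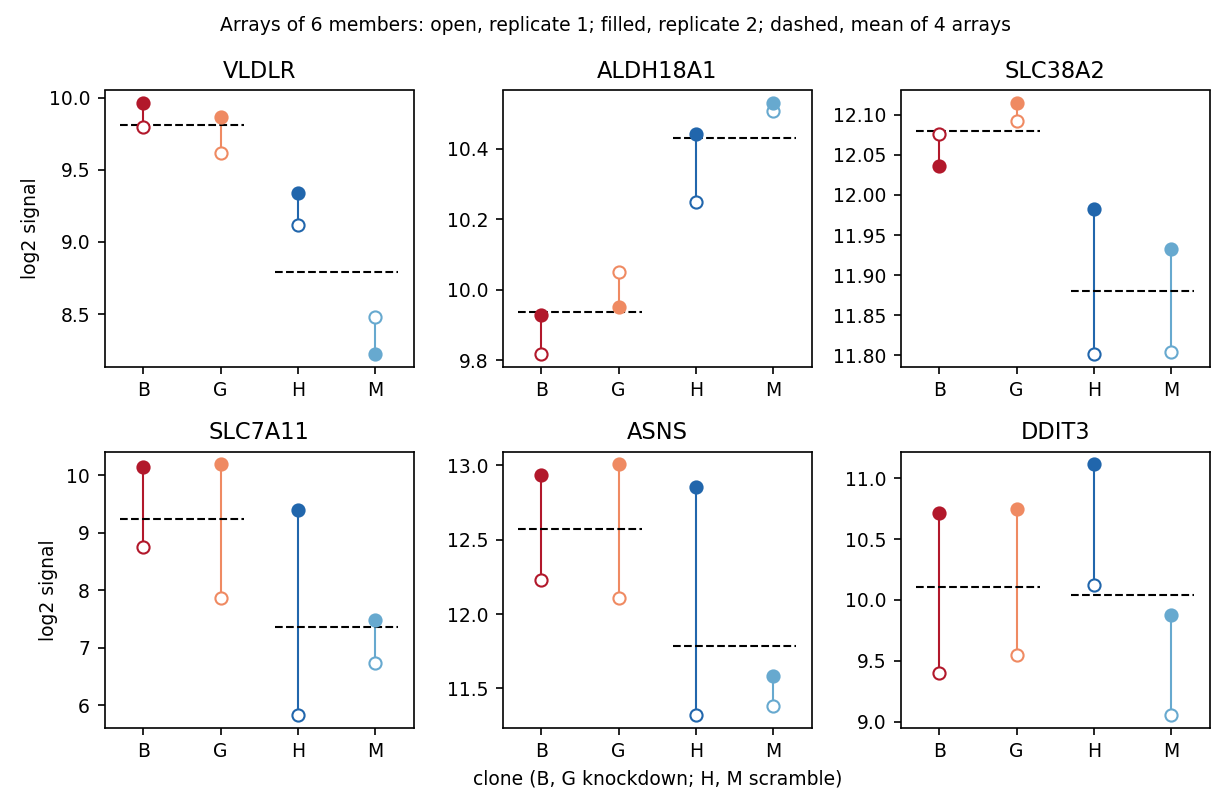
Log2 signal on every array for 6 members by clone; open circles are replicate 1, filled circles replicate 2, and dashed lines the mean of each condition's 4 arrays. VLDLR, ALDH18A1 and SLC38A2 separate the conditions, whereas SLC7A11 and ASNS differ by a like amount between replicate numbers and between conditions. DDIT3 differs between replicate numbers (1.08) and by a like amount between scramble clones H and M (1.16). Each panel has its own vertical scale.

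Among the transcription factors, all 7 differences were positive and none passed the test. ATF4 itself, brighter than 97.2% of probe sets, was 12.38 and 12.85 in B, 12.27 and 12.93 in G, 11.89 and 13.08 in H, and 11.71 and 12.21 in M. The highest of the 8 arrays was thus a scramble array, H2, and the conditions overlapped. ATF4 averaged 12.61 ± 0.33 against 12.22 ± 0.61 (SD, n = 4 each), a difference of 0.38 (95% interval -0.21 to 0.98, adjusted p = 0.45).

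CEBPB, a partner of ATF4 on the composite element, differed by 0.76 (SE 0.58), and CEBPG, another C/EBP partner, by 0.64 (SE 0.31). ATF3, a stress-induced repressor and activator of the same family, differed by 0.55 (SE 0.21, adjusted p = 0.20). DDIT3, which encodes the pro-apoptotic factor CHOP, was 9.40 and 10.72 in B, 9.55 and 10.75 in G, 10.13 and 11.12 in H, and 9.05 and 9.88 in M. Its conditions overlapped throughout, and its difference of 0.06 (interval -0.91 to 1.03) leaves changes of nearly a doubling either way within the error. ATF5 (0.13), a factor also controlled through eIF2, and NUPR1 (0.03), a small stress-induced chromatin protein, lay near 0, and NUPR1 had a low signal (6.53 and 6.50).

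The stress effectors showed wide ranges in both conditions. CHAC1, which degrades glutathione, was 8.46 and 9.55 in B, 8.22 and 9.70 in G, 7.40 and 9.23 in H, and 7.40 and 8.31 in M. Within either replicate number both knockdown arrays were above both scramble arrays, but H2 was above B1 and G1. Its difference of 0.90 (SE 0.44) had an adjusted p of 0.29, and of 0.047 with the replicate number as a block, which made it the 1 member called higher in that fit. In the same fit ALDH18A1 was the 1 member called lower, and the background was 1.74% higher and 1.61% lower.

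DDIT4, an inhibitor of mTORC1, differed by 0.72 (SE 0.35), and EIF4EBP1, a repressor of cap-dependent translation, by 0.33 (SE 0.17). TRIB3, a pseudokinase that feeds back on ATF4, differed by 0.32 (SE 0.43). NIBAN1, a stress-induced gene, differed by -0.07 (SE 0.80). It was 5.92 and 8.51 in B, 5.74 and 8.52 in G, 5.20 and 8.37 in H, and 7.23 and 8.15 in M, so its replicate 1 array in clone M stood above the replicate 1 arrays of the other clones.

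Of the 11 enzymes of amino acid and folate-linked carbon synthesis, 9 had a positive difference and ALDH18A1 was the only one called. ASNS, which makes asparagine and is the classic amino acid response gene, was 12.23 and 12.94 in B, 12.11 and 13.01 in G, 11.32 and 12.85 in H, and 11.38 and 11.59 in M. The conditions overlapped because H2 stood beside B2 and G2, while H1, M1 and M2 lay below all knockdown arrays. The difference was 0.79 (SE 0.33, adjusted p = 0.23).

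The serine pathway gave positive differences in each of its 3 enzymes, 0.41 for PHGDH, the entry step from glycolysis, 0.22 for PSAT1, the transaminase that follows, and 0.26 for PSPH, the final phosphatase (adjusted p = 0.26, 0.66 and 0.22). The mitochondrial folate enzymes SHMT2 and MTHFD2 differed by 0.49 and 0.60 (adjusted p = 0.24 and 0.22). PCK2, the mitochondrial enzyme that makes phosphoenolpyruvate, differed by 0.45 (adjusted p = 0.21). The enzymes that make cysteine from homocysteine did not share a sign: CBS, the first step, differed by 0.34 (adjusted p = 0.25) and CTH, the second, by -0.10 (interval -0.35 to 0.15, adjusted p = 0.65).

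All 6 amino acid transporter genes had a positive difference, with a median of 0.65, and none passed the test. SLC7A11, the cystine carrier that feeds glutathione synthesis, had the largest difference of all members. It was 8.76 and 10.15 in B, 7.88 and 10.20 in G, 5.83 and 9.41 in H, and 6.74 and 7.49 in M. H2 was above both replicate 1 knockdown arrays, and H1, the lowest array, was 3.58 below H2. The difference of 1.88 (SE 0.71, interval 0.28 to 3.48) had an adjusted p of 0.19, and of 0.072 with the replicate block. The other probe sets of SLC7A11 gave 1.39 and 0.73.

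SLC7A5, the large neutral amino acid exchanger, was 10.57 and 11.69 in B, 10.45 and 11.72 in G, 9.29 and 11.24 in H, and 9.48 and 9.91 in M, a difference of 1.13 (SE 0.42, adjusted p = 0.19). SLC3A2, the heavy chain that both SLC7A5 and SLC7A11 need at the membrane, differed by 0.42 (SE 0.27). SLC1A4, a carrier of alanine, serine and cysteine, differed by 0.88 (SE 0.30, adjusted p = 0.15), and its 3 further probe sets gave 1.18, 1.21 and 0.42. SLC1A5, the glutamine carrier, differed by 0.36 (SE 0.11, adjusted p = 0.11).

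SLC38A2, a sodium-coupled neutral amino acid carrier, had the smallest spread of the transporters. Its 4 knockdown arrays read from 12.04 to 12.11 and its 4 scramble arrays from 11.80 to 11.98. The arrays did not overlap, yet the difference was only 0.20 (SE 0.06, adjusted p = 0.11). A second probe set gave 0.23.

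The 7 genes of tRNA charging and export gave differences of at most 0.45, with 6 positive, a median of 0.29 and none called. Glycyl-tRNA synthetase GARS1 differed by 0.45 (SE 0.20, adjusted p = 0.25), the seryl enzyme SARS1 by 0.31, the asparaginyl enzyme NARS1 by 0.29, the alanyl enzyme AARS1 by 0.27 and the tryptophanyl enzyme WARS1 by 0.26. XPOT, which exports tRNA from the nucleus, differed by 0.31 (adjusted p = 0.31). The bifunctional glutamyl-prolyl enzyme EPRS1 differed by -0.03 (interval -0.26 to 0.20), and its 2 further probe sets gave 0.09 and 0.03.

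VEGFA, an angiogenic growth factor, was 11.95 and 12.99 in B, 11.98 and 12.89 in G, 11.34 and 12.48 in H, and 10.93 and 11.13 in M. Within each replicate number the knockdown arrays were higher, and H2 overlapped B1 and G1. Its difference was 0.98 (SE 0.35, adjusted p = 0.16). STC2, a secreted glycoprotein, differed by 0.50 (SE 0.57), with the highest array, H2 at 10.04, and the lowest, M1 at 7.56, both in scramble clones.

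Members with and without the C/EBP-ATF match in a promoter gave overlapping differences. The 10 measured members that hold it had a median difference of 0.50, with 10 of 10 positive, and the 22 measured members with a promoter but no match had 0.31, with 18 of 22 positive. Between the replicate numbers the medians were 0.64 and 0.61. These groups are small and were not tested.

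Differences between the replicate numbers were larger at the median than those between the conditions. All 39 members had higher mean signal in replicate 2 than in replicate 1, with a median of 0.59 against 0.03 over all probe sets. In limma with clone as a fixed term, 23 of the 39 were called higher in replicate 2 and none lower, beside 4.6% of all probe sets called higher and 8.76% called lower; at an unadjusted p under 0.05, 31 members were higher and 0 lower, beside 14.9% and 16.4% of all probe sets. NIBAN1 (2.36), SLC7A11 (2.01), CEBPB (1.76), STC2 (1.56), CHAC1 (1.33), TRIB3 (1.25) and SLC7A5 (1.19) had the largest of these differences. The called members were 5 of 7 transcription factors, ATF4 among them (0.70, adjusted p = 0.008), 4 of 5 stress effectors, 4 of 11 synthesis enzymes, 4 of 6 transporters, 4 of 7 tRNA genes and 2 of 3 secreted factors and receptors.

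By replicate number VLDLR differed by 0.09 (adjusted p = 0.52), ALDH18A1 by 0.06 (adjusted p = 0.59) and SLC38A2 by 0.07 (adjusted p = 0.38). For these 3 the arrays of the conditions did not overlap, which itself favours members with small replicate differences. SLC1A5, whose arrays overlapped, also gave 0.09 (adjusted p = 0.39). What the replicate number stands for is not given in the sources used here.

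**Figure D3:**
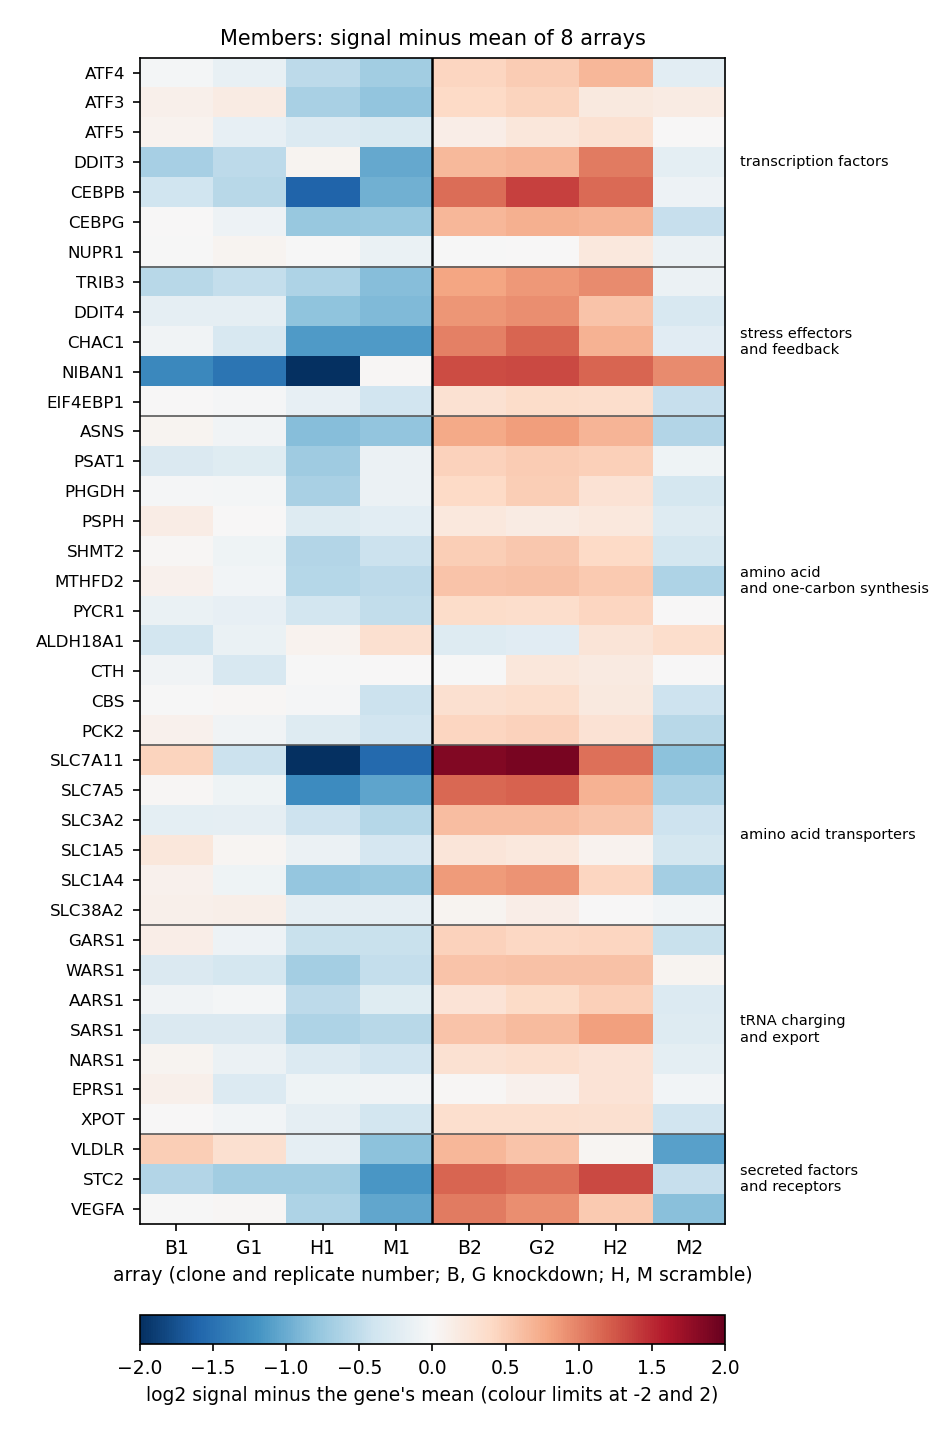
Log2 signal of each of 39 members minus its mean over 8 arrays, with the replicate 1 arrays left of the line and the replicate 2 arrays right of it; rows are grouped by role, and values beyond the colour limits of -2 and 2 take the end colours. Arrays B2, G2 and H2 are red for most members, and M2 is not.

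The size of the replicate difference was unequal between clones. The median over members was 0.47 in clone B, 0.63 in G, 0.99 in H and 0.16 in M. In that order, 10, 9, 18 and 0 members rose by over 1, beside 0.33%, 0.17%, 0.42% and 0.37% of all probe sets. Clone M had the smallest difference for 31 of the 39 members, where it did so for 28.4% of all probe sets. Clone H had the largest for 34, and the share of all probe sets for that order was not counted. In all 4 clones at once, replicate 2 was above replicate 1 for 25 of 39 members, against 20.2% of probe sets. The arrays B2, G2 and H2 all lay above the other 5 arrays for 32 of the 39 members, against 7.55% of probe sets, an order looked for after the values were seen.

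**Figure D4:**
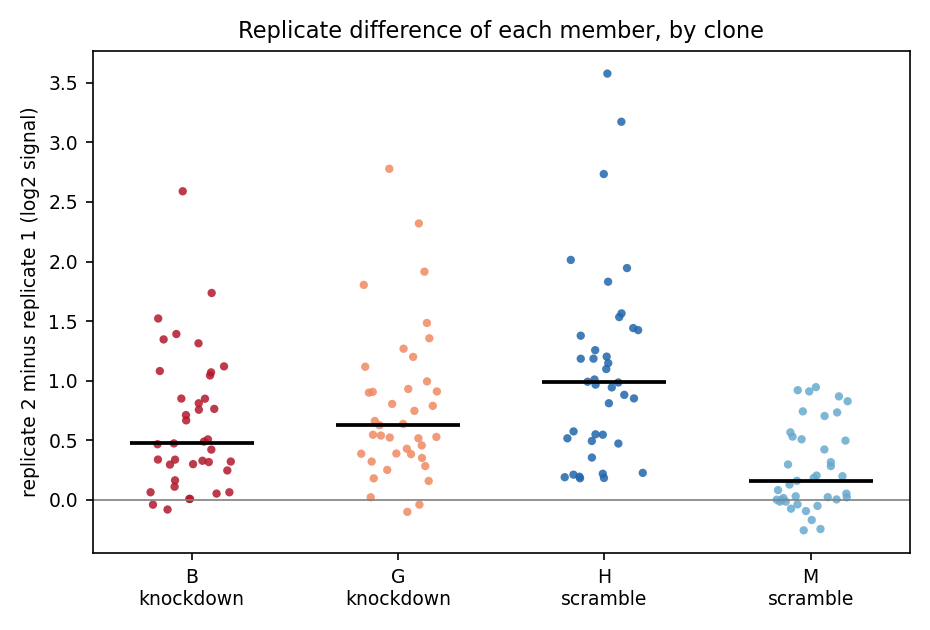
Replicate 2 minus replicate 1 in log2 signal for each of 39 members (points, spread sideways at random) in each clone, with the median as a bar. The medians are 0.47, 0.63, 0.99 and 0.16 in B, G, H and M, and no member exceeds 1 in clone M.

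RNA quality was read from control probe sets, as the signal at the end of a transcript minus that at its start. For ACTB it was 0.46, 0.35, 0.30 and 0.10 in replicate 1 of B, G, H and M, and 0.24, 0.25, 0.19 and 0.11 in replicate 2. It was thus lower in replicate 2 for B, G and H, lowest in clone M, and within each replicate number higher in both knockdown arrays than in both scramble arrays, so it moved with the comparison of conditions as well. For GAPDH it was 0.09, 0.06, 0.13 and 0.02 in replicate 1 and 0.05, 0.06, 0.03 and 0.04 in replicate 2, and it was highest in the scramble array H1, so it did not separate the conditions as the ACTB value did. Their part in the members' differences was not tested.

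Other lists of genes, related to the members more or less closely, were read in the same comparison of replicate numbers. In the endoplasmic reticulum branch of the unfolded protein response, 10 of 18 genes were called higher in replicate 2 and 0 lower, with a median of 0.34; HERPUD1 (0.80, adjusted p = 0.003) and XBP1 (0.71, adjusted p = 0.009) were among them. Of 44 other reported ATF4-dependent genes, 11 were called higher and 4 lower, with a median of 0.18. The shares over all probe sets were 4.6% higher and 8.76% lower. The eIF2 kinases, phosphatases and initiation factors had 1 of 21 called in each direction, the mitochondrial tRNA synthetases 0 of 10 higher and 1 lower, and the genes of mTORC1 and lysosomal amino acid sensing 0 of 18 higher and 2 lower. The other lists had calls both ways: 3 higher and 5 lower of 18 in folate-linked, serine, glycine and proline metabolism, 1 and 3 of 13 mitochondrial protein stress genes, 3 and 1 of 21 C/EBP and leucine zipper partners, and 2 and 1 of 11 other cytosolic tRNA synthetases.

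Separated by replicate number, the knockdown difference of the members was similar in size. In replicate 1 alone both knockdown arrays were above both scramble arrays for 32 of 39 members, against 24.9% of probe sets, and below for ALDH18A1 and CTH, against 25.8%. In replicate 2 alone this held for 20 members above, against 27.7%, and for ALDH18A1 below, against 20.8%. The median differences were 0.31 and 0.39, and with 2 arrays a condition no member was called in either (limma). At an unadjusted p under 0.05, 25 members were higher and 1 lower in replicate 1, beside 8.59% and 6.73% of all probe sets, and 6 and 1 in replicate 2, beside 6.73% and 6.10%. The test of whether the knockdown difference itself changed with replicate number called no member and 0.0% of probe sets; 2 members had an unadjusted p under 0.05, beside 8.41% of all probe sets.

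The scramble clones gave differences from each other of the size seen between conditions. Clone H minus clone M was positive for 36 of 39 members, NIBAN1 (-0.91), PSAT1 (-0.01) and ALDH18A1 (-0.17) being the exceptions. The median was 0.45, beside a median of 0.01 and 51.3% positive over all probe sets. No member was called between H and M by limma (background 1.05%), VLDLR coming nearest at 0.88 (adjusted p = 0.053). An unadjusted p under 0.05 was found for 4 members, beside 13.2% of all probe sets. Clone M had the lowest mean of the 4 clones for 34 of 39 members (87.2%), against 36.7% of all probe sets. Markers of cell state differed between these clones too: clone H minus clone M had a median of -0.40 for 13 mesenchymal neuroblastoma markers (YAP1, -1.63, and ANXA2, -1.19, called lower), -0.59 for 11 fibroblast and smooth muscle markers (none called) and 0.40 for 15 adrenergic markers (DBH, 0.70, called higher). Their part in the members' differences was not tested.

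The knockdown clones, by contrast, were close. Clones B and G were within 0.15 of each other for 38 of 39 members, SLC7A11 being the exception at 0.42, and the median absolute gap was 0.04 against 0.46 between H and M. Over all probe sets those gaps were 0.08 and 0.14. No member was called between B and G by limma (background 0.0045%), and 0 had an unadjusted p under 0.05.

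Set against each scramble clone in turn, with the knockdown arrays shared by both comparisons, the members gave different sizes. Against clone M the median was 0.59, with VLDLR, CBS (0.59, adjusted p = 0.042) and SLC1A5 (0.52, adjusted p = 0.028) called higher and ALDH18A1 (-0.58, adjusted p = 0.016) lower; the background was 3.78% higher and 4.28% lower. At an unadjusted p under 0.05, 15 members were higher and 1 lower than in clone M, beside 2993 and 2720 of all 22215 probe sets. Against clone H the median was 0.19, and 32 of 39 were positive, beside 49.7% of all probe sets. None was called against clone H (background 0.266%, 2 members at an unadjusted p under 0.05 beside 8.47% of all probe sets). DDIT3 was 0.64 above clone M and 0.52 below clone H (a difference of -0.52), and STC2, TRIB3, NUPR1, EPRS1 and NIBAN1 also changed sign between them. For 31 members the means of both knockdown clones were above those of both scramble clones. The share of all probe sets with that order was not counted, so this number has no background.

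Of the 8 arrays left out in turn, H2 raised the number of members called the most. Without it, 26 members were called higher and 1 lower in limma with the clone block, against backgrounds of 8.94% and 7.94%, and the median difference was 0.62. They included ATF4 (0.66, adjusted p = 0.014), ASNS (1.13, adjusted p = 0.0047), CHAC1 (1.24, adjusted p = 0.025), SLC7A5 (1.51, adjusted p = 0.0073), SLC7A11 (2.45, adjusted p = 0.012), VEGFA (1.35, adjusted p = 0.005) and GARS1 (0.68, adjusted p = 0.0047). All 6 transporter genes were called higher, as were 7 of the 11 synthesis enzymes and 5 of the 7 tRNA genes. DDIT3 (0.48, adjusted p = 0.29) and TRIB3 (0.68, adjusted p = 0.13) were not called. The member called lower was the synthesis enzyme ALDH18A1 (-0.51, adjusted p = 0.0071).

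The estimated correlation between arrays of a clone was -0.35 without H2, which narrows the error of the difference between conditions. With no clone block, 11 members were called higher without H2, against a background of 2.39%, and 1 lower; CEBPG (0.97), ASNS (1.14), SLC7A5 (1.55) and VEGFA (1.32) were among the 11, and ATF4, CHAC1 and SLC7A11 were not. Both fits set a balanced knockdown group against H1, M1 and M2, of which 2 are replicate 1 arrays, so the replicate difference enters them. With the replicate number as a block as well, 24 members were called higher and 1 lower without H2, against backgrounds of 6.06% and 4.24%, and the median difference was 0.52. With that block and no clone block they were 28 and 1, against 8.26% and 6.16%. ATF4 (0.58, adjusted p = 0.0065), ASNS (1.04, adjusted p = 0.0058), CHAC1 (1.09, adjusted p = 0.0049) and SLC7A11 (2.31, adjusted p = 0.0075) were among the 24. H2 is one of 4 scramble arrays, nothing in the labels sets it apart, and without it clone H is represented by H1 alone. Leaving out any 1 of the other arrays gave 0 or 1 member called higher.

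These lists of genes outside the 43 were read in the comparison of conditions too. Among 44 other reported ATF4-dependent genes the median difference was -0.02, with 21 positive. Beside shares of 1.53% called higher and 1.43% called lower over all probe sets, none of these genes was called higher and 2 were called lower. These were ERO1A, a disulfide oxidase (-0.61, SE 0.09, adjusted p = 0.012), and CDKN1A, the cell cycle inhibitor p21 (-0.69, SE 0.14, adjusted p = 0.038, and 0.064 with the replicate block). JUN, a leucine zipper partner of the ATF family, rose. It read 9.96 and 10.43 in B, 9.93 and 10.42 in G, 9.16 and 9.51 in H, and 8.75 and 9.31 in M, without overlap, a difference of 1.01 (SE 0.17, adjusted p = 0.021), and it was the 1 gene called of 21 C/EBP and leucine zipper partners.

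Of 18 other genes of folate-linked, serine, glycine and proline metabolism, 1 was called. DLD, a subunit of the glycine cleavage and pyruvate dehydrogenase complexes, fell (-0.37, SE 0.06, adjusted p = 0.021). The shares of all probe sets called were again 1.53% higher and 1.43% lower. In the endoplasmic reticulum branch of the unfolded protein response 5 of 18 were positive, with a median of -0.25, and EDEM1, which helps clear misfolded glycoproteins, fell (-0.53, SE 0.10, adjusted p = 0.025). None was called in either direction among 21 genes of eIF2 phosphorylation (median 0.07), 11 other cytosolic tRNA synthetases (0.17), 10 mitochondrial tRNA synthetases (0.04), 13 mitochondrial protein stress genes (0.07) or 18 genes of mTORC1 and lysosomal sensing (0.06). At an unadjusted p under 0.05 these 5 lists had 2 higher and 2 lower, 1 and 0, 1 and 0, 1 and 0, and 2 and 1 genes, the endoplasmic reticulum list 0 higher and 6 lower of 18, the other ATF4-dependent genes 2 and 7 of 44, the folate-linked list 1 and 1 of 18, and the C/EBP and leucine zipper partners 2 and 0 of 21, beside 10.9% higher and 9.02% lower over all probe sets.

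Markers of other states of neuroblastoma cells had mostly lower mean signal in knockdown arrays. Of 13 mesenchymal neuroblastoma markers 2 had a positive difference, with a median of -0.63 and none called, and the sum of their log2 signals ranged from 96.7 to 103.3 in knockdown and from 99.4 to 113.1 in scramble arrays. Of 11 fibroblast and smooth muscle markers 1 was positive, with a median of -0.27, and the sums ranged from 79.5 to 86.1 and from 85.2 to 99.0. Adrenergic markers were positive in 14 of 15, with a median of 0.17 and sums from 179.9 to 182.9 and from 173.6 to 181.6. In bulk RNA, fewer cells of a state and less RNA per cell cannot be told apart, and the part of these markers in the members' differences was not tested.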

How the data were processed

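For the 8 Affymetrix 1-colour arrays, 2 for each of 4 clones, total RNA is named as the molecule and biotin as the label. GCOS and RMA are named, without versions, per the submitters' processing notes; the deposited values are log2 signals per probe set, already background-corrected and normalized by the authors' RMA, which shrinks differences of dim genes. They were used unchanged. After 62 control probe sets were left out, 22215 were tested; 19064 were annotated to 1 gene, 1043 to several and 2108 to none, and 19052 were matched to current RefSeq symbols by gene ID.

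Tests used limma 3.58.1 (R 4.3.3) with an intensity trend, Benjamini-Hochberg over all 22215 probe sets and a threshold of 0.05, two-sided. Knockdown against scramble had clone as a random block (duplicateCorrelation, consensus correlation -0.07); clones were compared by 1 mean per clone, and replicate numbers with clone as a fixed term. Deviations of arrays with the same number correlated in all 6 pairs of clones (r from 0.42 to 0.78 across probe sets, which are not independent). Arrays of the same number thus deviated together, but the labels state no pairing and the source of the shared deviation was not tested. With the replicate number as a block the consensus correlation was 0.24. Replicate arrays of a clone correlated at 0.99 and none were identical.

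Every member was named by its brightest probe set; of the other lists, genes were named where called. Members, lists and tests were chosen with earlier results of these data known. Alternatives were other normalizations, other blocks, filters, and leaving out each array, clone or replicate number. With few arrays, precision is limited by their number.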

Additional observations from a re-analysis of the deposited data

Results flagged for a closer look

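Groups of 4 arrays were examined for 39 members in each condition, 78 groups in all. In 8 of them, 1 array stood apart from the other 3 by a gap above Dixon's 95% critical value. In 7 of them the array was the high scramble array H2. It read 10.39 for PSPH (nearest other array 9.97), 12.87 for MTHFD2 (11.83), 8.76 for CTH (8.59), 10.28 for SLC3A2 (9.32), 9.53 for SLC1A4 (8.41), 13.02 for GARS1 (12.14) and 11.86 for EPRS1 (11.54). In the other, knockdown array G1 was low for SLC1A5, at 9.59 where the nearest array was 9.77.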

How the results depend on the processing

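The median member difference between knockdown and scramble stayed positive under every alternative run, from 0.19 with clone M left out to 0.63 without array H2 and without the clone block; leaving out 1 array at a time gave 0.23 to 0.62. The number of members called did not hold. Where no background is given above for a fit, the share of all probe sets called was not counted. Such counts cannot be read as a result about the members. The estimated correlation between arrays of a clone was -0.585 with clone H left out and -0.543 with clone M left out. As without H2, a negative correlation narrows the error of the difference between conditions. Called higher were 29 with clone H left out (11 with no clone block as well), 2 with clone M left out (0 with no clone block as well), 11 without array H2 and without the clone block, and 0 with clone B left out, clone G left out, clone means, no clone block, quantile normalization, or the arrays of replicate 1 or of replicate 2 alone. Called lower were 0 with clone B or clone G left out, clone means, replicate 1 or replicate 2 alone, and clone M left out with no clone block. Leaving out 1 array at a time gave 0 to 26 members higher, the 26 without H2, and 0 to 1 lower. With the replicate block and H2 left out, 24 were called higher (28 with no clone block as well). With the replicate block 1 member was called higher and 1 lower, VLDLR losing its call and CHAC1 gaining one at the same difference of 0.90. In the comparison of replicate numbers 14 members were called higher with clone B or with clone G left out, and 18 to 30 under the other alternatives.

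Signs turned for members near 0. DDIT3 was -0.52 with clone M left out (with or without the clone block), -0.11 in replicate 1 alone and -0.31 to 0.48 without single arrays (negative without B2, G2, M1 or M2). NUPR1 was -0.085 with clone M left out (either block), -0.038 in replicate 2 alone and -0.022 to 0.11 without single arrays (negative without M1 or M2). TRIB3 was -0.0089 and STC2 -0.066 with clone M left out (either block), and CTH 0.0079 in replicate 2 alone. NIBAN1 was 0.39 with clone M left out (either block), 0.020 as the mean of its probe sets, 0.31 without H2 and without the clone block, 0.25 in replicate 2 alone, and -0.70 to 0.40 without single arrays (positive without B1, G1, H2, M1 or M2). EPRS1 was 0.041 with clone G left out, 0.042 with clone H left out (either block), 0.030 as the mean of its probe sets, 0.051 without H2 and without the clone block, 0.035 without H2 with the replicate block (0.036 with no clone block as well), and -0.073 to 0.050 without single arrays (positive without G1 or H2). The cause of these changes was not tested.

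With 2 clones a condition, clone-level tests have little power. The alternatives without a clone block beside a left-out array or clone, those with the replicate block and H2 left out, and those of the replicate comparison, were chosen after seeing the data.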

Other observations

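Among probe sets other than the brightest, 16 of 20 shared the sign of the member's brightest probe set and none was called in either direction. The 3 probe sets of ATF5 gave 0.13, -0.01 and 0.19, those of STC2 0.50 and 0.09, and those of NIBAN1 -0.07 and 0.11. The 4 probe sets of VEGFA gave 0.98, 0.75, 0.80 and 0.73, and those of PSPH 0.26 and 0.50.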
